A study of Rattus norvegicus with 6 samples.

Results

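The miRNAs described here are 5 that are known for their high levels in neurons, miR-128, miR-129, miR-218a, miR-9a and miR-124. They were chosen by the name of the hairpin precursor, rno-mir-128, rno-mir-129, rno-mir-218a, rno-mir-9a or rno-mir-124, with copies of one miRNA joined. Reads were summed per library and arm, the 5p arm taking those centred before the middle of the hairpin and the 3p arm the rest. The files hold 9 such hairpins of 821 in all, 2 of miR-128, 2 of miR-129, 2 of miR-218a and 3 of miR-9a. No row for miR-124 was found in the files used here, and it is not analysed here. The 9 hairpins gave 7 arms, of which 4 had enough counts to be tested.

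The libraries were small RNA libraries of RSC96 cells, an immortalised Schwann line of rat, kept for 48 h under high glucose (3 libraries) or under low glucose, the control (3 libraries). The labels do not state the glucose concentrations. Schwann cells are the glia that ensheathe peripheral axons, and glucose in the medium is used to model diabetic neuropathy. The series title concerns exosomes, the labels leave unstated whether RNA came from vesicles or from cells, and their extraction text speaks of retinas. RNA was measured in bulk, so fewer cells holding a miRNA and less of it per cell cannot be told apart.

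A miRNA guides Argonaute proteins to messenger RNAs that pair with its seed, the short stretch near its 5′ end, and lowers their stability or translation. miR-128 is abundant in brain and in mouse limits the excitability of neurons. miR-9 acts in neural progenitors and in neuron differentiation, and in human cells it and the repressor REST hold each other down. miR-218 is enriched in motor neurons of mouse and is encoded within the Slit genes, which encode axon guidance ligands, and miR-129 is enriched in brain. miR-124 is a widely used marker of neurons.

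The sequences that carry the comparison are those of 5 of the 7 arms with reads, the 4 tested arms and miR-9a-3p, shown with the seed, bases 2 to 8 from the 5′ end, in capitals (RefSeq, rat assembly GRCr8).
miR-128-3p: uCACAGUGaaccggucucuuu
miR-129-5p: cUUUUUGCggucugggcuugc
miR-218a-5p: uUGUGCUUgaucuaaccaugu
miR-9a-5p: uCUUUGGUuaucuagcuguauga
miR-9a-3p: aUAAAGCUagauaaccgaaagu
These 5 seeds differ from each other. Among the other tested arms, 1 predicted arm had a most abundant read with the seed of miR-218a-5p, and none had that of miR-128-3p, miR-129-5p, miR-9a-5p or miR-9a-3p.

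All 9 hairpin sequences of the files matched a RefSeq hairpin of GRCr8 base for base. Mir128-1 lies at chr13:42251884-42251965 on the plus strand, within R3hdm1, and Mir128-2 at chr8:120963795-120963878 on the minus strand, within Arpp21 and a long non-coding RNA gene. Mir218-1 lies at chr14:66922348-66922457 on the minus strand, within Slit2, and Mir218-2 at chr10:20572523-20572632 on the plus strand, within Slit3. Mir9-1 at chr2:175974971-175975059, Mir9-2 at chr2:15933292-15933378 and Mir9-3 at chr1:142849400-142849489, all on the plus strand, lie within an unnamed long non-coding RNA gene, within Mir9-2hg and within Mir9-3hg. Mir129-1, at chr4:58589711-58589782 on the plus strand, lies within a long non-coding RNA gene, and Mir129-2, at chr3:100657390-100657486 on the minus strand, overlaps no gene other than its own. The copies of miR-128 share the 3p arm, in capitals in the hairpins of the files, and differ in the base just after it.
mir-128-1: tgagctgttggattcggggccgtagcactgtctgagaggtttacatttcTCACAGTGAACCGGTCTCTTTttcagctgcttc
mir-128-2: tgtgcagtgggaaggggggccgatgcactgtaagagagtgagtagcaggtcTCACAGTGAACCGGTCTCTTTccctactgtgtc
No read of the 9 hairpins was also listed under a hairpin of another miRNA, so the counts below are not shared with other miRNAs.

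Depth differed between the groups: the high glucose libraries held 963706 to 1354456 counts on hairpins and the low glucose libraries 114615 to 148143. Only sequences with 2 or more reads are listed, so a sequence seen once is absent from a file. Levels are given as CPM, counts scaled to a common library size with TMM factors, a trimmed mean of the ratios between libraries. By edgeR's quasi-likelihood test, with a threshold of 0.05 on p after Benjamini-Hochberg adjustment, 122 of 297 tested arms, 41.1%, were higher in high glucose and 67, 22.6%, were lower. With upper quartile scaling these counts were 91 and 93. With all libraries thinned to the smallest, in the first of 20 random draws, they were 64 and 62 of 167. Over all tested arms the log2 fold change had a median of 0.68, and of 0.12 with upper quartile scaling.

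Of the 4 tested arms, 2 were higher in high glucose, miR-128-3p and miR-129-5p, 1 was lower, miR-218a-5p, and miR-9a-5p did not pass the test. The 7 arms together made up 1.67% to 2.20% of all counts in high glucose and 0.801% to 0.904% in low glucose. miR-128-3p was the largest part of them in high glucose and miR-218a-5p in low glucose. Without miR-128-3p the arms summed to between 2397 and 2768 CPM in the high glucose libraries. In the low glucose ones they then summed to between 5647 and 6561 CPM, the opposite order. miR-129-5p entered the test through its counts in high glucose alone. With so few tested arms, these counts show no share apart from that among all arms.

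miR-128-3p, the arm known to act in neurons, had 13809, 24869 and 24604 counts in high glucose libraries 1 to 3, against 210, 207 and 349 in low glucose libraries 1 to 3. Scaled, this was 14294, 20310 and 20133 CPM in high glucose, against 1462, 1387 and 3126 CPM in low glucose. The groups were far apart, and the third low glucose library stood above the other two. miR-128-3p was 9.20-fold higher in high glucose, with a log2 fold change of 3.20 ± 0.35 (SE) and an adjusted p of 0.000200 by edgeR. In CPM, 3 of 3 high glucose libraries lay above every low glucose one, as they did for 136 of the 297 tested arms. It ranked 12 to 16 among 549 to 627 listed arms in the high glucose libraries and 37 to 58 among 280 to 300 in the low glucose ones.

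miR-218a-5p, the arm enriched in motor neurons, had 762, 1022 and 1445 counts in high glucose and 601, 769 and 513 in low glucose. Its raw counts thus differed 1.71-fold between group means, while total counts differed 9.31-fold. Scaled, it stood at 789, 835 and 1182 CPM in high glucose, against 4185, 5154 and 4595 CPM in low glucose. It was 4.96-fold lower in high glucose, with a log2 fold change of -2.31 ± 0.21 (SE) and an adjusted p of 7.52e-05 by edgeR. In CPM, all 3 high glucose libraries lay below all low glucose ones, as they did for 77 of the 297 tested arms. With upper quartile scaling the log2 fold change was -2.90. By rank it stood at 59 to 78 in high glucose and 25 to 27 in low glucose.

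miR-9a-5p, the arm of miR-9 that acts on REST, had 1394, 1950 and 1809 counts in high glucose, against 210, 210 and 174 in low glucose. After scaling it had 1443, 1593 and 1480 CPM in high glucose, against 1462, 1407 and 1558 CPM in low glucose, and the groups overlapped. The log2 fold change was 0.03 ± 0.15 (SE), which did not pass edgeR's test at an adjusted p of 0.878. Its direction depended on the scaling: with upper quartile scaling it was -0.56 and passed the test as lower (edgeR adjusted p = 0.0159). It ranked 53 to 54 in the high glucose libraries and 56 to 57 in the low glucose ones.

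miR-129-5p had 126, 190 and 94 counts in high glucose, or 130, 155 and 76.9 CPM, and was listed at 0 in all 3 low glucose libraries. It passed the test as higher (edgeR adjusted p = 0.00130), a comparison with 0 counts that the deeper high glucose libraries alone brought past the count filter, and no fold is given, because sequences read once are left out of the files and the true count behind a 0 is unknown. Depth bears on this directly. When the libraries were thinned to 114497 reads each and sequences with 1 read were dropped again, miR-129-5p kept 14.4, 16.4 and 7.75 counts on average over 20 draws in the 3 high glucose libraries, never under 5 in a draw. In the first draw, the only one that was fitted, it had too few counts to enter the test.

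**Figure D1:**
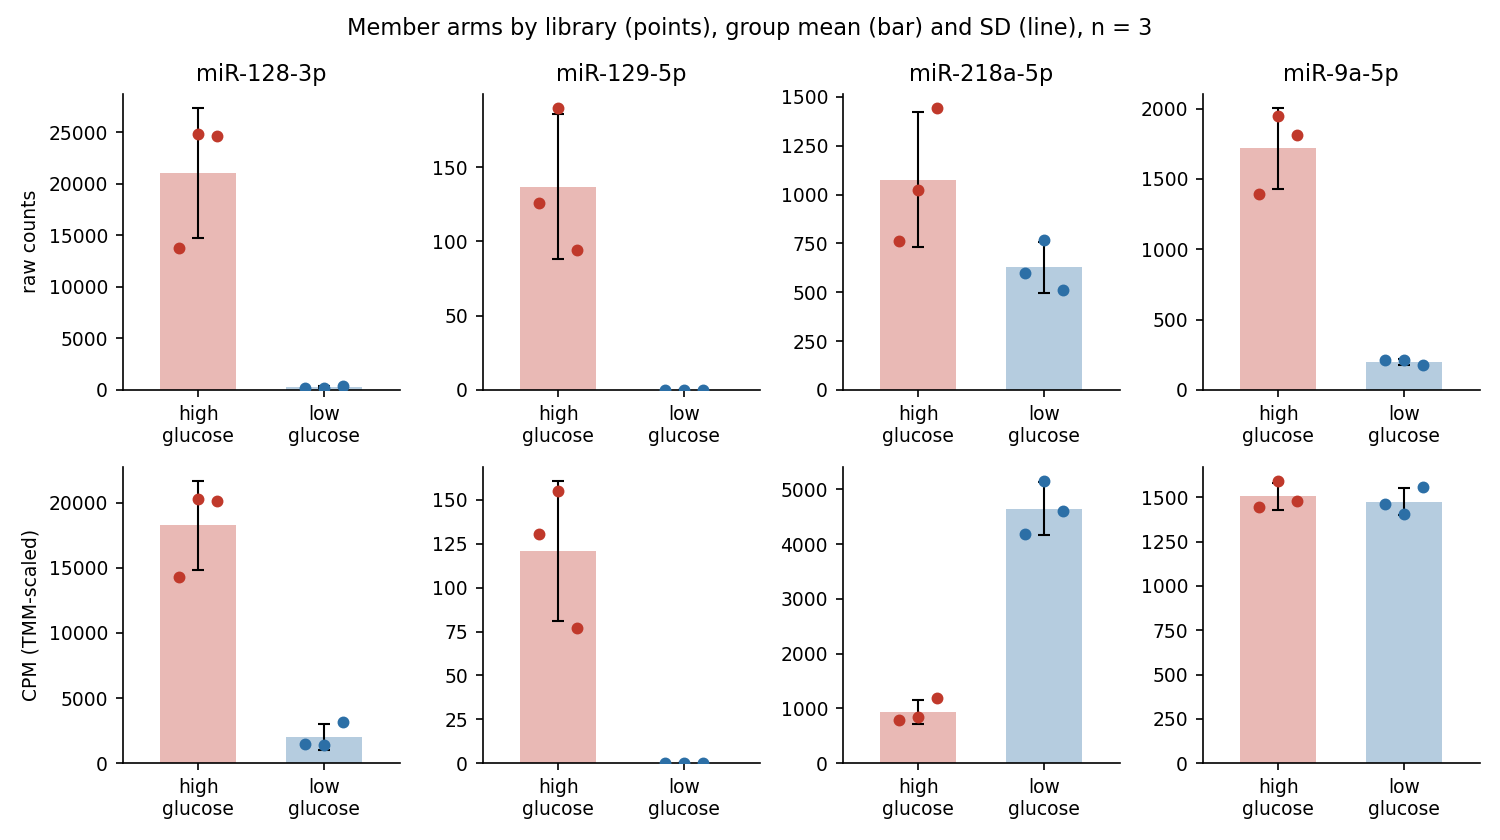
Raw counts (upper panels) and TMM-scaled CPM (lower panels) of the 4 tested arms, with a point per library, bars for the group mean and lines for the SD (n = 3). miR-128-3p is higher in high glucose on both scales, miR-129-5p is listed at 0 in low glucose, miR-218a-5p changes its order between the scales, and miR-9a-5p overlaps in CPM.

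The other 3 arms were too sparse to be tested. miR-9a-3p had 18, 39 and 18 counts in high glucose, miR-128-5p had 16, 0 and 2, and miR-218a-3p had 0, 0 and 15. In low glucose all 3 arms were listed at 0. After thinning, miR-9a-3p averaged 1.65 counts over the high glucose libraries and was at 0 in some draws of every library, so a difference was not detectable at this depth. No read of a 3p arm of miR-129 was listed. The guide arm thus gave nearly all listed counts of each miRNA.

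**Figure D2:**
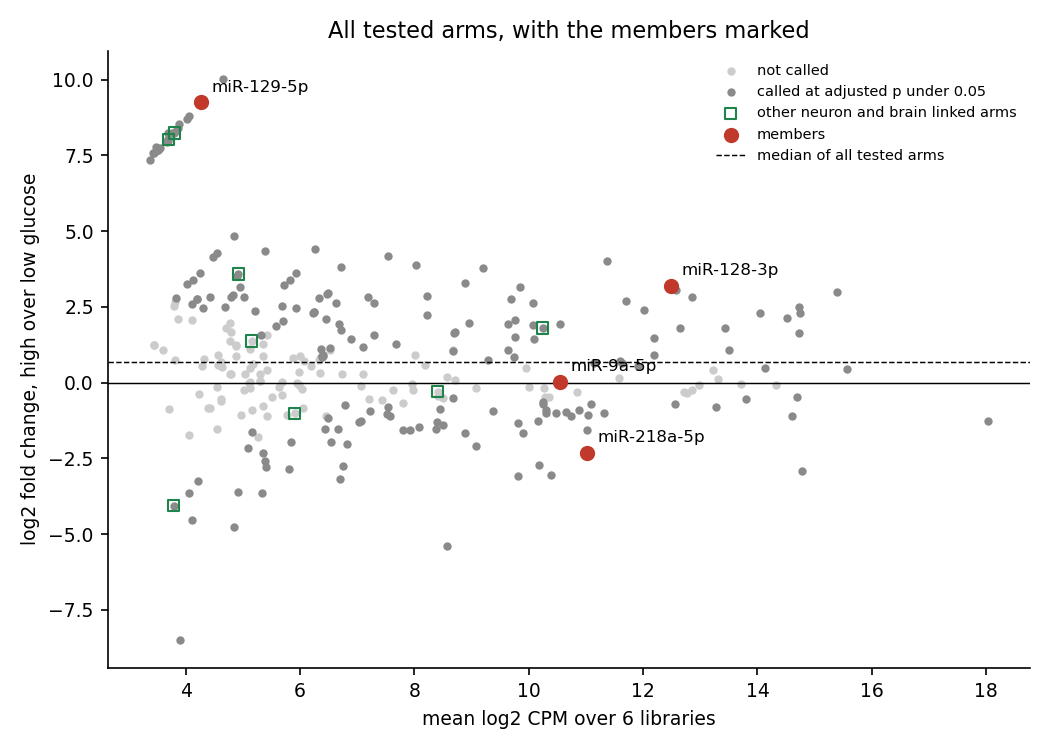
Log2 fold change of high over low glucose against the mean log2 CPM over the 6 libraries for the 297 tested arms, with the members in red and tested arms of other neuron and brain linked miRNAs as squares. miR-128-3p lies above the dashed median at 0.68 and miR-218a-5p below it, and the arms at the upper left, miR-129-5p among them, were listed at 0 in low glucose, so their height there depends on the value fitted for a 0.

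Ratios of these arms within a library do not depend on scaling, and 3 of them were formed after the values had been seen. There were 18.1, 24.3 and 17.0 miR-128-3p counts per miR-218a-5p count in high glucose, against 0.349, 0.269 and 0.680 in low glucose. The order of the pair was opposite in the groups: miR-128-3p was the more abundant in every high glucose library and miR-218a-5p in every low glucose one. The ratio of miR-128-3p to miR-9a-5p was 9.91, 12.8 and 13.6 in high glucose, against 1.00, 0.986 and 2.01 in low glucose. That of miR-218a-5p to miR-9a-5p was 0.547, 0.524 and 0.799 in high glucose, against 2.86, 3.66 and 2.95 in low glucose. Each ratio separated the groups, with a two-sided exact permutation p of 0.1 before and after Benjamini-Hochberg adjustment over the 3 ratios, the smallest p that 3 against 3 libraries allow. For the first ratio this was fixed by the levels above, where miR-128-3p lay higher and miR-218a-5p lower in every high glucose library. The ratios use the same counts as those levels and are no separate support. As geometric means the first differed 49.0-fold, the second 9.54-fold and the third 5.13-fold.

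**Figure D3:**
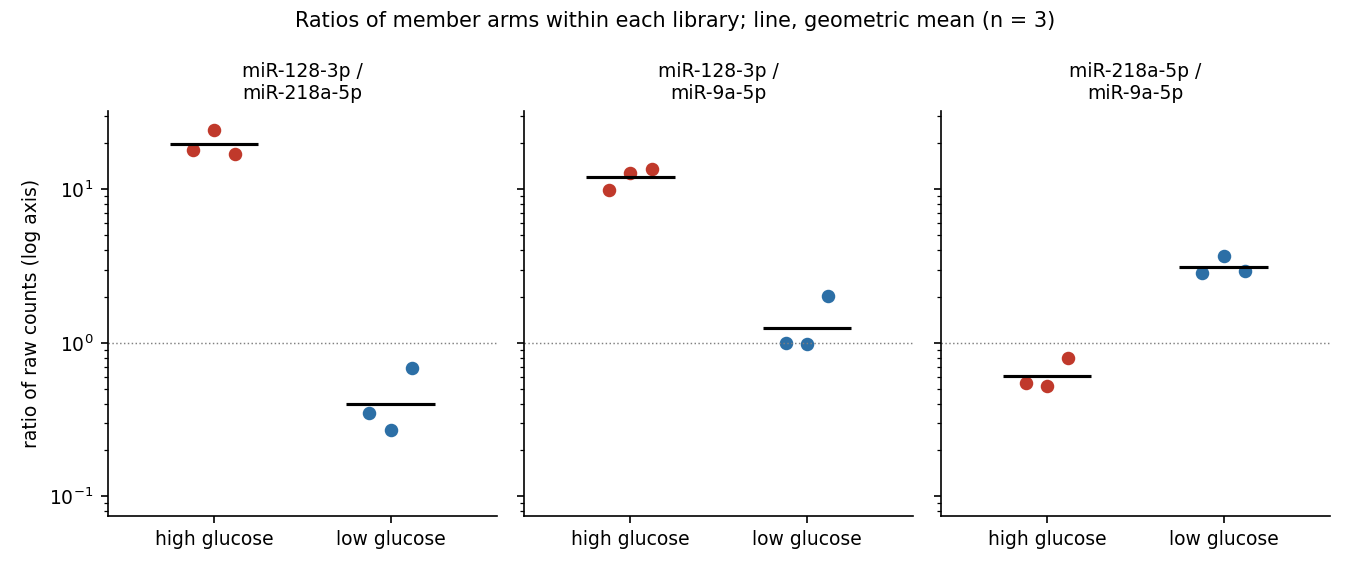
Ratios of raw counts between pairs of arms in each library on a log axis, with a line at the geometric mean of each group (n = 3) and a dotted line at equal counts. In high glucose miR-128-3p exceeds miR-218a-5p by 17.0 to 24.3 times, and in low glucose it is below it, at 0.269 to 0.680.

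The reads of miR-128-3p fell into a few main forms, 4 of which are shown so that the trimmed and mismatched ends can be compared, with a base that does not match the hairpin in capitals and positions counted from 1 at the 5′ end of the read.
21 nt form: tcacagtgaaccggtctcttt
22 nt form: tcacagtgaaccggtctctttt
23 nt form with mismatch: tcacagtgaaccggtctctttAt
22 nt form with mismatch: tcacagtgaaccggtctctttA
The 21 nt form, the RefSeq mature sequence, made up 57.0%, 59.8% and 58.3% of miR-128-3p counts in high glucose, against 50.5%, 51.2% and 43.6% in low glucose. The 23 nt form with the substitution T22A against mir-128-1 made up 9.02%, 8.50% and 7.80% in high glucose, against 15.2%, 18.8% and 22.6% in low glucose. Both forms separated the groups, the first higher and the second lower in high glucose. Reads without a mismatch made up 82.5% ± 1.43 of miR-128-3p under high glucose, against 69.0% ± 2.78 under low glucose (SD, n = 3 each). The mean read length was 21.32 ± 0.04 nt under high glucose, against 21.61 ± 0.04 nt under low glucose (SD, n = 3 each).

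The mismatches of miR-128-3p lay in the last 3 bases of the read for 91.8% to 94.4% of mismatched counts in high glucose and for 100% in low glucose. Over all miRNAs, counts without a mismatch were 83.0% to 85.2% in high glucose and 79.6% to 82.2% in low glucose, and the part of this in the difference of miR-128-3p was not tested. Thinned to equal depth, the share without a mismatch was 83.1% in high glucose and 69.0% in low glucose. For the 12 measures of form tested, 4 for each of 3 arms, the exact two-sided permutation p was 0.1 at the lowest, the smallest possible here, and 0.24 after Benjamini-Hochberg adjustment. None of these measures therefore passed a threshold of 0.05. Reads that match only mir-128-1 without mismatch numbered 9965 in high glucose and 115 in low glucose. Those that match only mir-128-2 numbered 228 in high glucose and 0 in low glucose. However, a T added to the 21 nt form of either copy gives a read that matches mir-128-1. These are raw sums, and miR-128-3p averaged 21094 counts per library in high glucose, against 255 in low glucose. At that depth the 0 does not show that mir-128-2 was absent in low glucose.

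The reads of miR-218a-5p all began at the RefSeq 5′ end, and 1 sequence, with 6 counts in high glucose library 3, carried a mismatch within the seed. Its main forms were of 21 nt and of 23 nt with a mismatched last base.
21 nt form: ttgtgcttgatctaaccatgt
23 nt form ending in A: ttgtgcttgatctaaccatgtgA
23 nt form ending in T: ttgtgcttgatctaaccatgtgT
16 nt form: ttgtgcttgatctaac
The 21 nt form made up 47.0%, 42.7% and 43.7% of miR-218a-5p counts in high glucose, against 48.9%, 45.8% and 51.1% in low glucose, and the groups overlapped. The form ending in A, with C23A against mir-218a-1 and G23A against mir-218a-2, made up 22.1% ± 3.35 under high glucose, against 17.8% ± 1.95 under low glucose (SD, n = 3 each). The form ending in T made up 16.7% ± 2.46 under high glucose, against 15.3% ± 2.04 under low glucose (SD, n = 3 each). The 16 nt form, which ends within the mature sequence, made up 5.54% ± 2.57 under high glucose, against 2.49% ± 1.24 under low glucose (SD, n = 3 each). Reads without a mismatch were 61.4%, 56.2% and 56.4% in high glucose, against 61.7%, 61.9% and 63.4% in low glucose, the opposite direction to miR-128-3p. Reads that extend past the shared part and match only mir-218a-1 without mismatch numbered 34 in high glucose and 33 in low glucose, and those that match only mir-218a-2 numbered 23 in high glucose and 9 in low glucose.

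miR-9a-5p had its 2 main forms of 23 and 21 nt in every library.
23 nt form: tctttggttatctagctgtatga
21 nt form: tctttggttatctagctgtat
22 nt form: tctttggttatctagctgtatg
The 23 nt form, the RefSeq mature sequence, made up 37.5% ± 10.3 under high glucose, against 41.0% ± 2.29 under low glucose (SD, n = 3 each), and the groups overlapped. High glucose library 2 stood apart, with 26.2% of the 23 nt form and 45.4% of the 21 nt form, and in the other 5 libraries the 23 nt form was the more abundant. The 22 nt form made up 12.7%, 7.54% and 15.4% in high glucose, against a mean of 20.2% ± 0.398 in low glucose (SD, n = 3). All 3 high glucose libraries lay below the low glucose ones in this form, which was picked out after its values were seen. Reads that begin at the RefSeq 5′ end were 98.6%, 96.6% and 99.2% of miR-9a-5p in high glucose and all of the listed reads in low glucose, where few reads of it were listed.

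**Figure D4:**
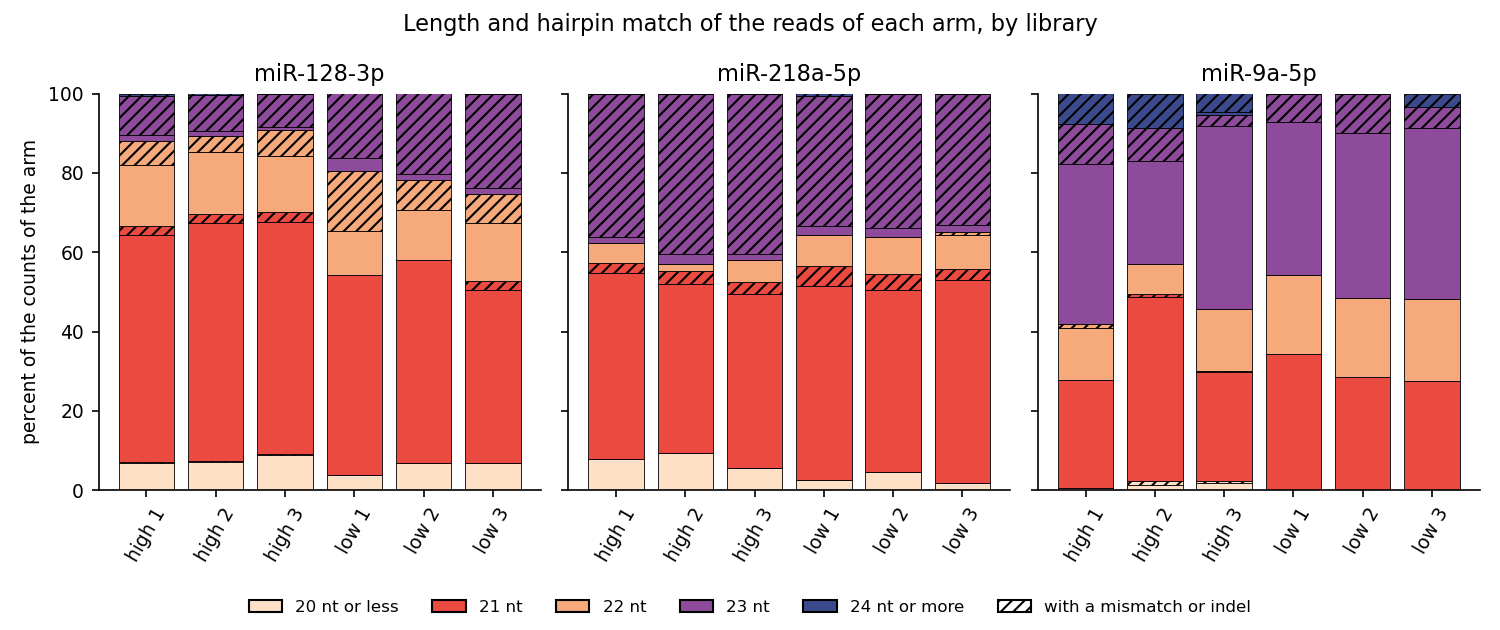
Share of the counts of miR-128-3p, miR-218a-5p and miR-9a-5p by read length (colour), with hatching for reads that carry a mismatch or indel, in the 3 high and 3 low glucose libraries. Mismatched reads of miR-128-3p are a larger part of the bar in low glucose, and the 21 nt part of miR-9a-5p is largest in high glucose library 2.

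Among the arms with few counts, miR-9a-3p was read mostly 1 base downstream of its RefSeq start.
main form of miR-9a-3p: taaagctagataaccgaaagta
This form, which has another seed than the RefSeq mature sequence shown above, had 9, 12 and 12 of the 18, 39 and 18 miR-9a-3p counts in high glucose. Of miR-129-5p, the RefSeq mature sequence made up 77.8%, 75.8% and 91.5% in high glucose. Both rest on few counts.

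The arms whose levels were most like those of the members were found by the distance between log2 CPM profiles over the 6 libraries, each centred on its own mean, among 163 annotated arms. Nearest to miR-128-3p were let-7c-3p and let-7a-3p, at a distance of 0.83 each, whose counts are largely the same reads, and then miR-328a-3p at 0.87, with 2741 ± 592 CPM under high glucose, against 449.6 ± 183 CPM under low glucose (SD, n = 3 each). Nearest to miR-218a-5p were miR-20a-5p at 0.88, miR-15b-5p at 0.89 and miR-503-5p at 1.07, all 3 of them lower in high glucose by edgeR's test. Nearest to miR-9a-5p were miR-27b-3p at 0.22, miR-320-3p at 0.39 and miR-143-3p at 0.46, none of which passed the test. miR-872-3p at 0.73, miR-92b-3p at 0.97 and miR-330-5p at 1.52 were nearest to miR-129-5p, and like it were listed at 0 in low glucose. The distances and the test use the same 6 libraries. The calls and zeros of these neighbours thus largely follow from how they were picked and are no separate result.

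Among 38 other miRNAs linked to neurons and brain, 18 were listed under the exact names used, and 8 of their 25 arms were tested. The name miR-328 did not match miR-328a, so these counts leave out miR-328a-3p, which was higher in high glucose (edgeR adjusted p = 0.000348). Of these 8, 4 were higher in high glucose, 1 was lower and 3 did not pass, beside 41.1% higher and 22.6% lower of all tested arms. Of the 4 higher arms, 2 were listed at 0 in low glucose and entered the test through high glucose alone. miR-330-3p, described below, also passed the count filter only through its counts in high glucose. miR-7a-5p, abundant in neurons and in endocrine cells, was at 3114, 1787 and 2050 CPM in high glucose, against 529, 804 and 645 CPM in low glucose, and was higher by 1.81 ± 0.27 (SE) on the log2 scale, with an adjusted p of 0.000937 by edgeR. miR-330-3p had 152, 136 and 130 counts in high glucose, against 0, 0 and 4 in low glucose, and was called higher. miR-330-5p and miR-543-3p, at 51.4 ± 12.7 and 59.4 ± 11.2 CPM in high glucose (SD, n = 3 each), were called higher and were listed at 0 in low glucose. miR-708-3p was called lower on few counts, 7, 0 and 0 in high glucose, against 8, 4 and 4 in low glucose, and passed the count filter only through low glucose. miR-598-3p had a log2 fold change of -0.29, miR-132-3p, which neuronal activity induces, -1.01, and miR-212-5p 1.38, and these 3 did not pass.

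Markers of other cells were read beside the members. Of the miRNAs linked to glia and Schwann cells, 5 of 21 tested arms were higher in high glucose, miR-221-3p, miR-222-3p, miR-222-5p, miR-23b-5p and miR-30c-5p, and 6 were lower, miR-21-5p, miR-22-5p, miR-23a-3p, miR-23b-3p, miR-140-3p and miR-140-5p. Of all 297 tested arms, 41.1% were higher and 22.6% lower. In low glucose miR-222-5p had 6, 2 and 2 counts and miR-23b-5p had 2, 2 and 2. Both passed the count filter only through high glucose. By the mean level over all 6 libraries, the leading arms of this glial list were miR-21-5p, miR-27b-3p and miR-222-3p, an order that differs between the groups, with log2 fold changes of -1.28, 0.11 and 3.05. That list summed to between 194950 and 257679 CPM in the high glucose libraries, against 409811 to 501205 CPM in the low glucose ones. Without miR-21-5p it summed to between 59749 and 67551 CPM in the high glucose libraries, against 46638 to 47877 CPM in the low glucose ones, the opposite order. The retinal list summed to between 460 and 657 CPM in the high glucose libraries, against 3516 to 4908 CPM in the low glucose ones, mostly through miR-184-3p, and 2 of 2 tested arms were lower. Without miR-184-3p it summed to between 60.4 and 116 CPM in high glucose, against 67.0 to 134 CPM in low glucose, and the groups overlapped. Its other tested arm, miR-183-5p, passed the count filter only through low glucose. miR-211-5p, not tested, had 49, 18 and 62 counts in high glucose, against 2, 0 and 0 in low glucose. No row of miR-96, also on the retinal list, was found in the files used here. The erythroid list, led by miR-451-5p, summed to between 762 and 954 CPM in the high glucose libraries, against 3250 to 6395 CPM in the low glucose ones, with 2 of 2 tested arms lower. Raw counts of the arms leading these lists were close between the groups. miR-184-3p averaged 540 in high glucose and 516 in low glucose. miR-451-5p averaged 355 in high glucose and 349 in low glucose, while total counts differed 9.31-fold. The liver list, led by miR-122-5p, summed to between 9192 and 15589 CPM in the high glucose libraries, against 3197 to 4693 CPM in the low glucose ones, with 2 of 2 higher. With 2 tested arms each, the retinal, erythroid and liver lists show no share apart from the 41.1% higher and 22.6% lower among all arms. Of the leukocyte list, led by miR-155-5p, 3 arms were tested and none of these 3 passed, and no muscle arm had enough counts to be tested. The part of other cell types in the results for miR-128-3p, miR-129-5p and miR-218a-5p was not tested.

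**Figure D5:**
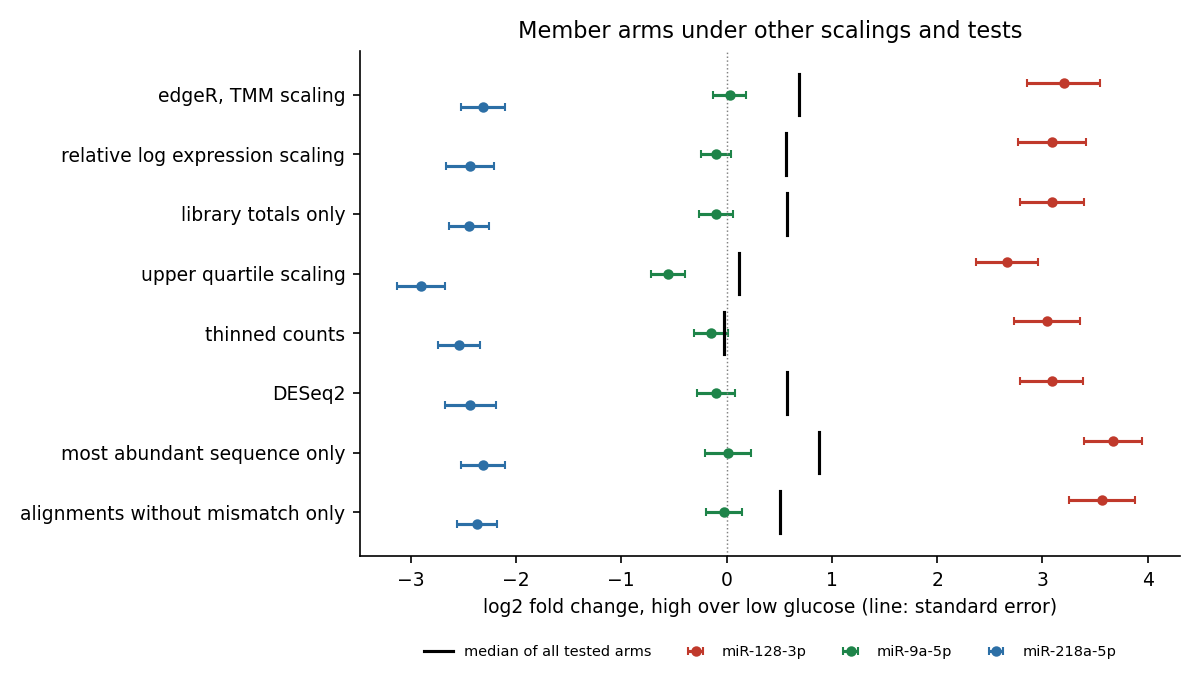
Log2 fold change of high over low glucose with its standard error for miR-128-3p, miR-9a-5p and miR-218a-5p under 8 settings, with a black bar at the median of all tested arms. miR-128-3p stays above 0 and miR-218a-5p below 0 in all 8, and miR-9a-5p lies between 0.03 and -0.56.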

How the data were processed

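Each of the 6 deposited files lists distinct sequences with their read counts, not normalized, per the file headers, and with the hairpin, position and mismatch of each alignment. Among the tools in the submitters' processing notes are Novoalign 3.02.12 and cutadapt 1.9.3. The build and the hairpin release were not given in the sources used here. Coordinates come from matching hairpin sequences to RefSeq tables of GRCr8. A sequence found in several hairpins has its reads divided evenly among them, to within 1 read, as a check of the files showed.

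Counts were summed per arm, giving 932 arms, 362 annotated and 570 predicted, with hairpins of identical sequence taken as 1. All arms were fitted together with edgeR 4.0.16 in R 4.3.3 (TMM scaling, filterByExpr with a minimum count of 10, quasi-likelihood test with robust fit, Benjamini-Hochberg adjustment at 0.05), with DESeq2 1.42.0 as an alternative. log2 CPM used a prior count of 2, and standard errors were derived from the fold change and its F statistic. Shares per library were compared by exact permutation tests where every library had 20 or more counts. Python 3.11.15, pandas 2.3.3, SciPy 1.17.1 and matplotlib 3.10.9 were used. Members, lists and tests were chosen with earlier results of these data known. All member arms were to be named, with the 3 nearest of the annotated arms that reach 50 CPM in a group, every tested arm of the other neuron list, and counts with leading arms of the other lists, not all of which are described. The other forms of reads described were chosen after their values were seen.

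The labels do not say whether replicates are separate cultures. The p-values thus reflect only how these libraries vary, and that variation may be technical. Replicates differed by more than counting noise (chi-square per degree of freedom 5.31 to 142). The files give no molecular identifiers. The alternatives were other scalings, filters, read subsets, a replicate block and leaving out each library, and the thinned shares of read forms were added after seeing the data. Calls and fold changes from thinned counts come from the first of the 20 draws, and thinned counts and shares are means over all 20.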

Additional observations from a re-analysis of the deposited data

How the results depend on the processing

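miR-128-3p kept its direction and its call under all 18 alternatives, with log2 fold changes of 2.66 to 3.67, and miR-218a-5p under all 18, at -2.90 to -2.08. miR-129-5p kept its call in the 17 alternatives that tested it and had too few counts in the thinned one. Each of these 17 compared it with 0 counts in low glucose, so the kept call adds no separate support. miR-9a-5p changed sign in 8 of 18: -0.10 with relative log expression scaling, with library totals only and with DESeq2, -0.56 with upper quartile scaling, -0.14 with thinned counts, -0.02 with alignments without mismatch, -0.03 with sequences of 1 arm only, and -0.08 without high glucose replicate 2. Leaving out 1 library gave it -0.08 to 0.15. The cause was not tested. miR-9a-3p, tested in 5 alternatives and in the analysis reported not at all, passed in 1, with a filter on mean CPM (edgeR adjusted p = 0.0395).

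Of the counts over all arms, 122 higher and 67 lower, the higher ones became 64 with thinned counts (167 arms tested) and 78 with annotated hairpins only (201 tested), and the lower ones 40 with the most abundant sequence only (236 tested). Leaving out 1 library gave 79 to 117 higher and 41 to 59 lower, 79 without high glucose replicate 2 and 41 without low glucose replicate 2. With the same replicate number as a block the counts were 105 higher and 58 lower, and the block changed no call of a member arm. Same-numbered libraries did not deviate together (correlations of 0.0445, -0.000655 and -0.0284), so the numbers were not taken as pairs.

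Among alignments without mismatch, the difference between high and low glucose in the share of the main sequence was 0.674 points for miR-128-3p, in place of 9.95, and -1.27 points for miR-218a-5p, in place of -4.13. The difference in mean length was -0.06 nt for miR-128-3p, in place of -0.29, and -0.42 nt for miR-218a-5p, in place of -0.13. These reads leave out the mismatched forms. Leaving out 1 library gave a difference in the main sequence share of miR-9a-5p of -7.94 to 2.11 points. Thinned to equal depth, the mean count in high glucose was 12.9 for miR-129-5p, in place of 137, and 1.65 for miR-9a-3p, of 18, 39 and 18 counts. Depth limits the low glucose libraries most.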
